A study of Sus scrofa with 8 samples.

Results

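The adipose and the fibrous synovium of the Angeln Saddleback pig (AS) were compared through the mesenchymal stem cells grown from each. The 4 arrays labelled with this breed were used of the 8 arrays in the series: 2 of cells from adipose synovium (AS-FP) and 2 of cells from fibrous synovium (AS-FS). The other 4 arrays hold the same tissues of German Landrace pigs (DL-FP and DL-FS, 2 each). Per the methods, the donors were 3 male piglets of each breed, 59 days old, and the RNA came from undifferentiated stifle joint cells at passage 3, described as cell pools of all animals. The FP cells come from the synovium over the fat pad below the kneecap, and the FS cells from that of the capsule at the outer side of the joint. No group carried a treatment or a transgene. Nothing ties the 2 arrays of a group to separate animals or cultures, so the p-values below describe array-to-array spread alone, and that spread may be technical.

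The synovium lines the joint and makes its fluid. Where it covers fat it is called adipose, and where it covers the dense joint capsule it is called fibrous. Both hold fibroblast-like cells that attach to plastic, divide, and can turn into fat, cartilage or bone cells in culture, which is what the name mesenchymal stem cell stands for here. Such cultures keep some of the expression pattern of the tissue they came from. Among the signals they use, the insulin-like growth factors act on growth and on cartilage and fat differentiation, and secreted binding proteins hold or release them.

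RNA was measured on the porcine Snowball array, where the probes that read 1 transcript are summarised as a probe set. Values are log2 RMA levels, so a difference of 1 is a doubling. The median level of the AS arrays lay between 4.58 and 4.64, and the median of the background control probe sets between 2.71 and 2.81. All 8 arrays correlated with each other at r of 0.982 to 0.990 across probe sets. Surface markers that define mesenchymal stem cells were well above background on all 4 AS arrays for THY1 (10.82 to 11.04), ITGB1 (11.24 to 11.49) and ENG (9.03 to 9.09), while NT5E, another defining marker, read 2.78 to 3.22, close to background. The blood cell marker PTPRC read 1.91 to 2.42, at or below background. The mean level over the 15 measured blood cell markers was 4.28 to 4.29 in AS-FP and 4.11 to 4.21 in AS-FS, with 3 of them at background in both groups. Of the 15 endothelial, 15 skeletal muscle and 9 epithelial markers measured, none was called different between AS-FP and AS-FS by limma, and 1, 0 and 1 of them had an unadjusted p under 0.05.

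AS-FP cells had more RNA of IGF1, of both subunits of a potassium channel (ABCC9 and KCNJ8), of the collagen COL11A1, of the complement component C7 and of the prostaglandin F receptor PTGFR. AS-FS cells had more RNA of CD34, of the fibulins EFEMP1 and FBLN1, of elastin (ELN) and of IGF2. Of 47722 probe sets, 236 (0.495%) were called different at an adjusted p of 0.1 or less, 152 (0.319%) higher in AS-FP and 84 (0.176%) higher in AS-FS. They stand for 132 named genes, 81 higher in AS-FP and 51 higher in AS-FS, and for 46 probe sets with no name here; no gene was called in both directions. In bulk RNA, fewer cells that express a gene and less of its RNA per cell cannot be told apart. The sizes ran from 0.45 to 2.63 on the log2 scale with a median of 0.99; 116 were over 1, a doubling, and 8 were over 2.

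The test was limma's moderated test with Benjamini-Hochberg adjustment, with the spread pooled over the 4 groups and the replicate number as a block. For 235 of the 236 called probe sets both arrays of one tissue lay beyond both arrays of the other. Among all probe sets both FP arrays lay above both FS arrays in 15.1% and below them in 15.6%, so separation of 2 against 2 arrays is common and is not the test. Over all probe sets, the difference of the arrays numbered 1 and that of the arrays numbered 2 correlated at r of only 0.0972, and at 0.195 over the 30933 probe sets above background by 1. The median difference over all probe sets was -0.005.

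**Figure D1:**
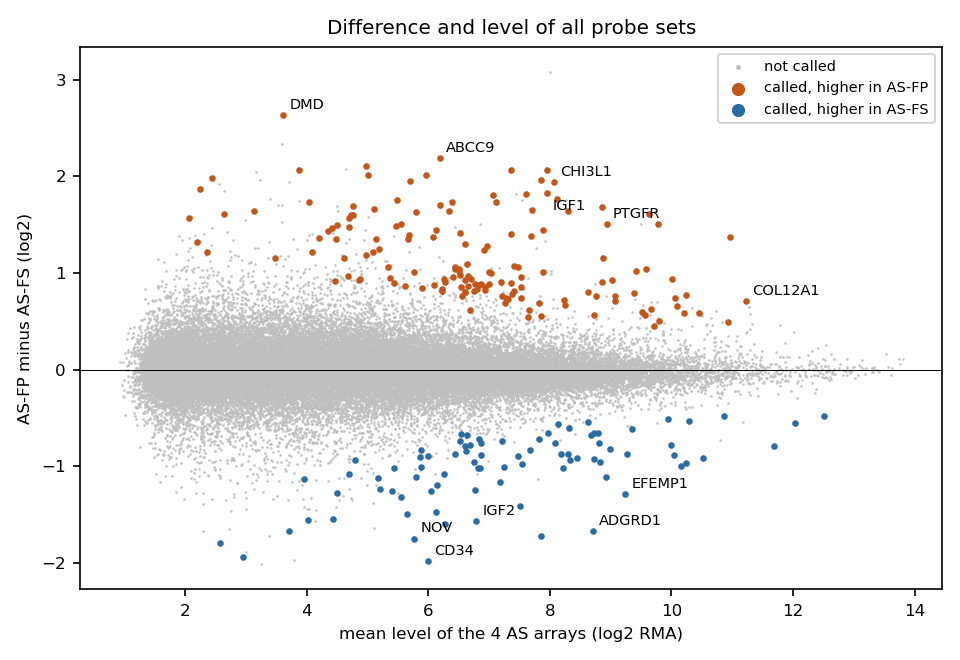
AS-FP minus AS-FS on the log2 scale against the mean level of the 4 AS arrays for all 47722 probe sets. Orange and blue points are the 152 and 84 probe sets called higher in AS-FP and in AS-FS, and grey points were not called. Called probe sets lie at levels from about the background to the brightest, and the smallest called difference, 0.45 for a C1S probe set, lies at a high level.

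The receptor of prostaglandin F, PTGFR, gave the lowest adjusted p among genes higher in AS-FP. It read 9.67 and 9.70 on the AS-FP arrays against 8.19 and 8.18 on the AS-FS arrays, a difference of 1.50 ± 0.08 (SE, n = 2 arrays a group; 2.83-fold; limma adjusted p = 0.00201). The arrays within each tissue were nearly equal, and the gap between tissues was far wider. PTGFR was called under all 16 alternative settings that were run, more than any other of the 30 genes followed through them. No other of the 17 measured genes of the prostanoid pathway was called. Of the 17, 9 had an unadjusted p under 0.05 in limma, in both directions, against 1046 of all 13469 genes.

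The adhesion receptor ADGRD1 gave the same adjusted p in the other direction. Its levels were 8.21 and 7.55 in AS-FP against 9.83 and 9.26 in AS-FS, a difference of -1.67 ± 0.09 (limma adjusted p = 0.00201), and its other probe set differed by -1.26 and was called too. In both tissues the array numbered 1 was the higher, and within each number the tissues stayed apart by nearly the same amount. Without the replicate number as a block this probe set was not called (limma adjusted p = 0.33).

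CD34, a surface sialomucin of blood progenitors and of some connective tissue fibroblasts, had the largest difference among genes higher in AS-FS. It read 5.03 and 4.97 in AS-FP against 7.16 and 6.81 in AS-FS, or -1.98 ± 0.14 (3.95-fold; limma adjusted p = 0.00449). The groups did not overlap, and both stood above background. Only RNA was measured here, and the study reported the cells of each tissue and breed as negative for CD34 protein by flow cytometry.

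The genes with the largest called differences, 15 in each direction, are drawn array by array. After DMD, which is described with its complex, the AS-FP side holds ABCC9, the membrane glycoprotein GPM6B, the phospholipase-like PLCXD3, the chitinase-like secreted protein CHI3L1, IGF1, KCNJ8, the receptor adapter GRB14, COL11A1, C7, the FGF signalling inhibitor IL17RD, the fat cell regulator PPARG, PTGFR, the adhesion molecule ALCAM and the Wnt antagonist SFRP1. The AS-FS side holds CD34, the matricellular protein NOV, the G protein subunit GNG3, ADGRD1, the nuclear protein PIR, IGF2, the limb patterning factor HOXD11, the cytokine IL1A, EFEMP1, the GATA cofactor ZFPM2, the hemicentin HMCN1, the phosphoesterase MPPED2, FBLN1, the calcium-binding CALB2 and the transcription factor CREB5. Their differences ran from 1.45 to 2.63 on the first side and from -1.12 to -1.98 on the second.

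**Figure D2:**
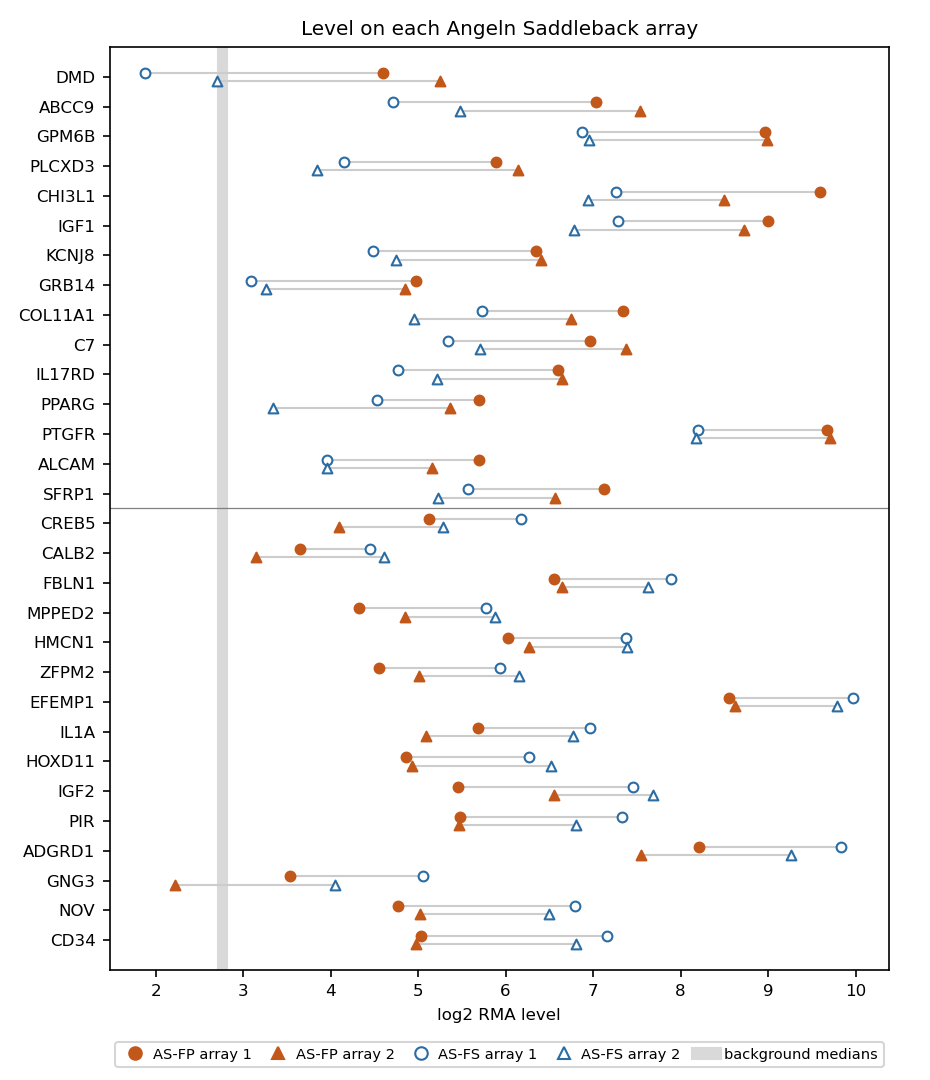
Log2 RMA level of 30 genes on each AS array, each by its called probe set with the largest difference. Filled orange symbols are AS-FP and open blue symbols AS-FS, circles are arrays numbered 1 and triangles arrays numbered 2, grey lines join arrays of 1 number, and the grey band spans the background medians from 2.71 to 2.81. The 30 genes were chosen so that the tissues do not overlap. The arrays of 1 tissue lie closest for ALCAM in AS-FS, 3.95 on both, and farthest apart for GNG3 in AS-FP, at 3.54 and 2.22.

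The insulin-like growth factor axis comprises the ligands, their receptors, the binding proteins, a protease that frees the ligands, and the adapters inside the cell. By the brightest probe set of each gene, 6 of the 22 measured genes on its list were called, 4 higher in AS-FP and 2 higher in AS-FS. By any probe set the number was also 6, so the called genes described below include some outside the list. Over all 13469 named genes the share was 0.817%, with 0.49% higher in AS-FP and 0.327% higher in AS-FS. The 2 ligands were called in opposite directions. The median difference over the list was 0.04, against -0.01 over all genes. The lists were chosen with earlier results of these data known.

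IGF1, the ligand that growth hormone induces, was higher in AS-FP. Its brightest probe set read 11.70 and 11.59 in AS-FP against 10.16 and 10.39 in AS-FS, a difference of 1.37 ± 0.10 (limma adjusted p = 0.00449). The gap between the tissues was several times that between arrays of a tissue. Of its 7 probe sets 6 were called, at 1.37 to 1.83, and the seventh differed by -0.20.

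IGF2, the second ligand, was higher in AS-FS. Its brightest probe set read 11.71 and 11.80 in AS-FP against 12.27 and 12.35 in AS-FS, a difference of -0.56 ± 0.07 (limma adjusted p = 0.0299). The tissues were apart on every array, although by less than for IGF1. Of its 14 probe sets 8 were called, from -0.56 to -1.56, and the other 6 ranged from -0.53 to 0.32, so the size depended on the probe set.

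The binding proteins split as well. IGFBP4, which holds the ligands back, read 9.23 and 9.75 in AS-FP and 8.42 and 8.70 in AS-FS (0.93 ± 0.10, limma adjusted p = 0.017), while its other probe set differed by -0.06. PAPPA, the protease that cuts IGFBP4, read 10.07 and 10.14 against 8.88 and 9.25 (1.04 ± 0.12, limma adjusted p = 0.021), and 2 of its 4 probe sets were called. Both rose in AS-FP. IGFBP5, which binds to matrix, was lower in AS-FP: 11.47 and 11.12 against 12.17 and 12.01 (-0.79 ± 0.10, limma adjusted p = 0.0299), called in 2 of 8 probe sets.

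Inside the cell, GRB14, an adapter that binds and dampens the insulin receptor, read 4.97 and 4.85 in AS-FP against 3.08 and 3.26 in AS-FS. That is a difference of 1.74 ± 0.22 (limma adjusted p = 0.0299), with the AS-FS level close to background. PIK3R1, the regulatory subunit of phosphoinositide kinase, differed by 0.94 ± 0.08 (limma adjusted p = 0.00778) in 1 of 3 probe sets. GHR, the growth hormone receptor, differed by 0.86 ± 0.14 (limma adjusted p = 0.064) in 1 of 3 probe sets, the others lying at -0.02 and 0.24. The receptor IGF1R was not called in any of its 6 probe sets, and its brightest differed by 0.28 ± 0.08.

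**Figure D3:**
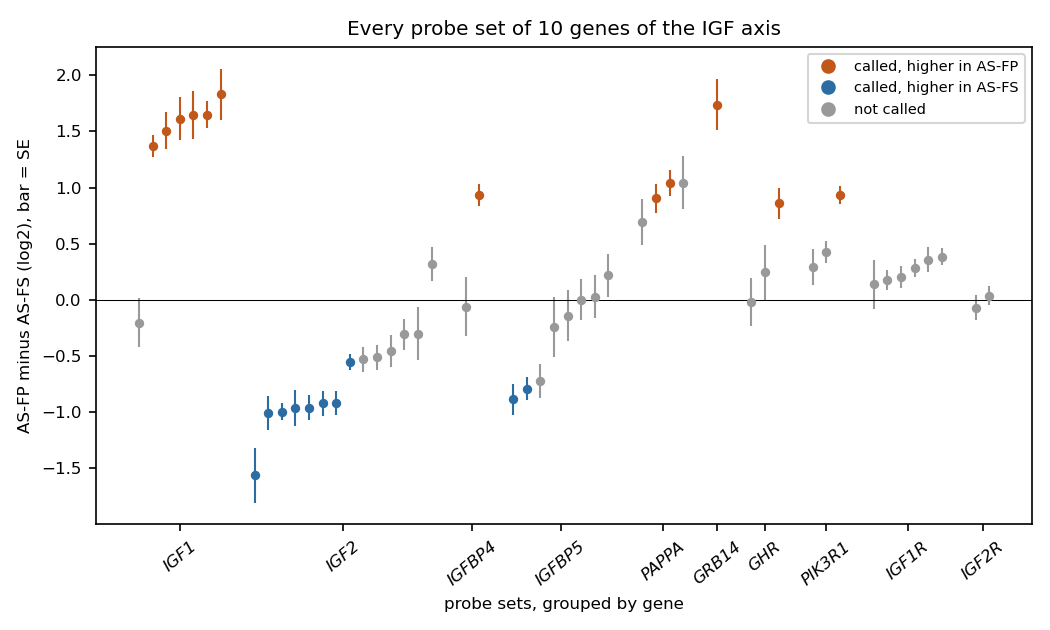
AS-FP minus AS-FS on the log2 scale, with its standard error, for every probe set of 10 genes followed with the insulin-like growth factor axis. Orange points were called higher in AS-FP, blue points higher in AS-FS, and grey points were not called. IGF1 lies at 1.37 to 1.83 in its 6 called probe sets and IGF2 at -0.56 to -1.56 in its 8.

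ABCC9 and KCNJ8 encode the regulatory and the pore subunit of an ATP-sensitive potassium channel, found in pericytes and smooth muscle, and are neighbours in the RefSeq gene order of the pig assembly. Both rose in AS-FP. ABCC9 read 7.04 and 7.54 in AS-FP against 4.72 and 5.47 in AS-FS in its probe set with the largest difference (2.19 ± 0.16, limma adjusted p = 0.00449), with 3 of 6 probe sets called at 1.73 to 2.19. KCNJ8 read 6.35 and 6.40 against 4.48 and 4.75 (1.76 ± 0.15, limma adjusted p = 0.0085), with both of its probe sets called.

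No other of the 17 measured genes of the channel and pericyte list was called. Among them the pericyte transcription factors TBX18 and FOXF2 differed by 0.40 and 0.36 (limma adjusted p = 0.29 and 0.38). The list's mean level, which includes ABCC9 and KCNJ8, was 5.20 to 5.27 in AS-FP and 4.88 to 4.95 in AS-FS. Its median difference was 0.13, against -0.01 over all genes, and 3 of the 17 genes were at background. None of the 16 smooth muscle contractile genes was called, and none had an unadjusted p under 0.05; ACTA2, the smooth muscle actin, read 12.77 and 12.25 in AS-FP against 12.83 and 12.37 in AS-FS.

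DMD, which encodes dystrophin, had the largest called difference. Its probe set read 4.60 and 5.25 in AS-FP against 1.88 and 2.71 in AS-FS (2.63 ± 0.34, limma adjusted p = 0.0299). The AS-FS values were below the background medians of their arrays, so the difference was at least 4.45-fold, taking background as the AS-FS level. Its brightest probe set, which was above background everywhere, differed by 0.96 ± 0.10 (limma adjusted p = 0.017), and 5 of its 9 probe sets were called, all higher in AS-FP.

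Of the dystrophin complex, SGCA and DTNB were each lower in AS-FP in 1 of 3 probe sets, which were not their brightest. SGCA, a sarcoglycan, differed by -1.01 ± 0.17 and DTNB, a dystrobrevin, by -0.74 ± 0.12 (limma adjusted p = 0.0826 and 0.0781). The rest of the 14 measured members were not called in any probe set.

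The fibulin and elastic fibre genes encode proteins that make stretchable fibres in the matrix. By the brightest probe set, 4 of 22 measured genes were called and all 4 were higher in AS-FS; the list's median was -0.12. EFEMP1, a fibulin, read 8.56 and 8.62 in AS-FP against 9.97 and 9.79 in AS-FS (-1.29 ± 0.09, limma adjusted p = 0.00449). FBLN1 read 6.55 and 6.64 against 7.89 and 7.63 (-1.16 ± 0.18, limma adjusted p = 0.0571). In both fibulins the gap between tissues was several times that between arrays.

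Elastin, ELN, the core of these fibres, read 7.84 and 7.59 in AS-FP against 8.96 and 8.49 in AS-FS (-1.02 ± 0.11, limma adjusted p = 0.019), with both probe sets called. HMCN1, a long hemicentin, was called in 5 of 6 probe sets at -0.67 to -1.24. One member went the other way in a probe set that was not its brightest: LTBP1, which stores latent TGF-beta in fibres, differed by 0.79 (limma adjusted p = 0.091). The fibulin FBLN5 and the fibril component MFAP5 differed by -0.39 and -0.36 and were not called (limma adjusted p = 0.17 for each).

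Fibroblasts of the deep synovial layer and of vessel sheaths are known by CD34, PI16 and fibulins. Of 21 measured markers of these fibroblasts 4 were called, all higher in AS-FS: CD34, EFEMP1, FBLN1 and PI16. PI16, a secreted peptidase inhibitor-like protein, read 8.93 and 7.81 in AS-FP against 9.76 and 9.21 in AS-FS (-1.11 ± 0.14, limma adjusted p = 0.0299). The groups did not overlap, although the AS-FP arrays were far apart. EFEMP1 and FBLN1 are also on the elastic fibre list, so these counts are not separate. Median difference over the list was -0.04, near that over all genes.

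The lining layer, which makes lubricant, has its own markers. Of 17 measured, only VCAM1, an adhesion molecule, was called: 9.04 and 9.24 in AS-FP against 8.33 and 8.43 in AS-FS (0.76 ± 0.13, limma adjusted p = 0.083). PRG4, the lubricant gene that defines this layer, read 4.33 and 4.19 against 4.95 and 4.20 and was not called. VCAM1 also stands on the list of mesenchymal stem cell surface markers, where ALCAM was called too, at 5.69 and 5.16 against 3.95 and 3.95 (1.47 ± 0.20, limma adjusted p = 0.0348). ALCAM's other probe set differed by -0.23. The other 8 of the 10 markers of that list were not called.

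Collagens and cartilage genes were called in 1 direction only, higher in AS-FP. COL11A1, a minor fibril collagen of cartilage, read 7.35 and 6.75 in AS-FP against 5.73 and 4.96 in AS-FS (1.71 ± 0.13, limma adjusted p = 0.00566). Its arrays numbered 1 were the higher in each tissue, and the tissues did not overlap. COL12A1, which coats collagen fibrils, read 11.60 and 11.55 against 10.85 and 10.89 (0.71 ± 0.08, limma adjusted p = 0.019), and all 3 of its probe sets were called.

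These were 2 of 38 measured collagens by the brightest probe set. COL6A3 was called in 1 of 10 probe sets, at 0.59. The main fibril collagen COL1A1 differed by -0.05 ± 0.06, and was not called. SOX9, the master regulator of cartilage, read 8.70 and 8.48 against 7.82 and 7.93 (0.72 ± 0.12, limma adjusted p = 0.066), called in both of its probe sets. COL11A1 and SOX9 were the only called genes of 19 on the cartilage list; the cartilage proteoglycan ACAN differed by -0.57 ± 0.15 and COL2A1 by 0.29 ± 0.11, neither called.

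Matricellular proteins sit in the matrix and act as signals. Of 23 measured, 6 were called, 4 higher in AS-FP and 2 higher in AS-FS. CHI3L1, secreted by joint cells, read 9.59 and 8.50 in AS-FP against 7.26 and 6.94 in AS-FS (1.94 ± 0.23, limma adjusted p = 0.0241). SMOC1, an inhibitor of bone morphogenetic proteins, read 7.45 and 7.63 against 6.30 and 6.30 (1.24 ± 0.14, limma adjusted p = 0.020). The tissues were apart in both, with a wide gap between the AS-FP arrays for CHI3L1.

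The olfactomedin-like OLFML2B and the growth factor PTN rose in AS-FP by 1.06 and 0.85 (limma adjusted p = 0.018 and 0.062). NOV fell in AS-FP, from 6.80 and 6.50 in AS-FS to 4.77 and 5.02 (-1.75 ± 0.26, limma adjusted p = 0.0469). Of the tenascins, TNXB was lower in AS-FP by 0.61 on the log2 scale (7.90 and 8.11 against 8.53 and 8.70, limma adjusted p = 0.039), and TNC was higher in 1 of 3 probe sets, at 0.66 ± 0.09 (limma adjusted p = 0.0299). TNC and PAPPA are neighbours in the RefSeq gene order.

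The adipocyte genes, which might be looked for in cells from a fat pad, gave no call among 33 measured by the brightest probe set. Of the 33, 10 had an unadjusted p under 0.05 in limma, against 1046 of all 13469 genes. In other probe sets 2 of the 33 adipocyte genes were called. PPARG, the regulator that starts fat cell differentiation, read 5.70 and 5.36 in AS-FP against 4.53 and 3.34 in AS-FS in 1 of 5 probe sets (1.59 ± 0.28, limma adjusted p = 0.0929), and its brightest read 6.65 and 6.94 against 5.72 and 5.63 (1.12 ± 0.21, limma adjusted p = 0.11). ADIPOQ, a fat cell hormone, was called in 2 of 6 probe sets, at 0.95 and 1.39, while its brightest differed by 0.50 (limma adjusted p = 0.43).

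Genes of mature fat cells were measured in both tissues and gave values on either side. FABP4, a fatty acid carrier, read 5.74 and 5.75 in AS-FP against 5.60 and 4.54 in AS-FS (0.68 ± 0.23, limma adjusted p = 0.52). LPL, which releases fatty acids, read 5.36 and 4.75 against 3.38 and 3.86 (1.43 ± 0.34, limma adjusted p = 0.26). SLC2A4, the insulin-regulated glucose transporter, lay the other way, at 4.94 and 3.86 in AS-FP against 6.47 and 5.10 in AS-FS (-1.38 ± 0.27, limma adjusted p = 0.138). None of the 3 was called. The transcription factor KLF4 and DGAT1, which makes triglyceride, also lay lower in AS-FP without a call, at -0.33 and -0.34 (limma adjusted p = 0.32 and 0.44). CD36, PLIN2 and CEBPA lay higher without a call, at 0.97, 0.27 and 0.37 (limma adjusted p = 0.29, 0.44 and 0.66), with CD36 at background in AS-FS. Among the list's genes at an unadjusted p under 0.05 in limma, SLC2A4, KLF4 and DGAT1 were lower in AS-FP and the rest higher. The list's mean level was 6.64 to 6.65 in AS-FP and 6.46 to 6.49 in AS-FS, and its median difference was 0.11. None of the 18 osteoblast genes was called, with 2 at an unadjusted p under 0.05.

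Complement genes gave 2 calls of 23, both higher in AS-FP. C7, part of the membrane attack complex, read 6.96 and 7.38 in AS-FP against 5.34 and 5.71 in AS-FS (1.64 ± 0.13, limma adjusted p = 0.00689), while its other 2 probe sets lay at -0.20 and 0.20. C1S, a protease of the classical pathway, differed by 0.59 ± 0.09 (limma adjusted p = 0.062), with 2 of its 3 probe sets called and the third at -0.50. The list's median was 0.25, the same sign in both pairs of arrays (0.36 and 0.20).

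Growth factor receptors and their modulators were also called. IL17RD, which restrains FGF signalling, read 6.60 and 6.65 in AS-FP against 4.77 and 5.21 in AS-FS (1.63 ± 0.18, limma adjusted p = 0.0177), called in 3 of 6 probe sets. FGFR2, a receptor of that pathway, was called in 3 of 10 probe sets, at 0.74 to 1.01, but not in its brightest (0.95 ± 0.18, limma adjusted p = 0.11). These were the called genes among 28 of the FGF list. SFRP1, which binds Wnt ligands, read 7.13 and 6.56 against 5.57 and 5.23 in its probe set with the largest difference (1.45 ± 0.22, limma adjusted p = 0.052), differed by 1.07 ± 0.12 in its brightest (limma adjusted p = 0.021), and was the only one called of 39 Wnt genes.

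In the TGF-beta and BMP list of 38, TGFB3, a ligand, rose by 0.86 ± 0.11 in AS-FP (8.20 and 7.72 against 7.37 and 6.84, limma adjusted p = 0.030). GREM1, a BMP antagonist, fell by 0.83 on the log2 scale (5.63 and 5.28 against 6.24 and 6.34, limma adjusted p = 0.0999). BMPR1B, a BMP receptor, was called in 1 of 4 probe sets, at 0.87. The Notch, VEGF and axon guidance lists, of 19, 8 and 63 measured genes, held 1 call each by the brightest probe set. The Notch target HEY1 and the semaphorin and VEGF co-receptor NRP1 were higher in AS-FP by 0.76 and 0.59 (limma adjusted p = 0.038 and 0.0299). In the axon guidance list the ephrin receptor EPHB2 was lower in AS-FP by 1.01 on the log2 scale (5.53 and 5.23 against 6.48 and 6.31, limma adjusted p = 0.060).

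The list of limb and positional transcription factors and cofactors gave 3 calls of 56 by the brightest probe set. EYA1 was higher in AS-FP by 0.82 ± 0.12. ZFPM2 and MEOX2 were lower by 1.20 and 0.57 on the log2 scale (limma adjusted p = 0.043, 0.030 and 0.062 in this order). HOXD11 was called in 1 of 3 probe sets, at 4.87 and 4.93 in AS-FP against 6.27 and 6.52 in AS-FS, and its other probe sets differed by -0.23 and -0.33.

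Of 12 glial genes, a pair was called: GPM6B, at 8.97 and 8.99 in AS-FP against 6.87 and 6.96 in AS-FS (2.06 ± 0.19, limma adjusted p = 0.0085; 7 of 8 probe sets called), and the myelin proteolipid MAL, at 1.06 ± 0.11 (limma adjusted p = 0.017). The defining Schwann cell marker SOX10 read 6.66 and 6.25 against 6.25 and 6.37 and was not called. The list's mean level, which includes this called pair, was 6.05 to 6.16 in AS-FP and 5.81 to 5.92 in AS-FS. Its median difference was 0.08, at 0.25 between the arrays numbered 1 and -0.09 between those numbered 2. The protocadherin PCDH17 was the only one of 27 cadherins called, at 1.27 ± 0.13 (limma adjusted p = 0.015).

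Among 30 NRF2 targets and detoxification enzymes 3 were called. PIR, itself an NRF2 target, read 6.68 and 6.94 in AS-FP against 8.26 and 8.18 in AS-FS in its brightest probe set (-1.41 ± 0.12, limma adjusted p = 0.0085). The aldehyde dehydrogenase ALDH2 and the glutathione transferase MGST1 went the other way, at 0.75 ± 0.07 and 1.35 ± 0.14 (limma adjusted p = 0.010 and 0.018). Their list held calls in both directions, and HMOX1, its best-known member, differed by -0.54 ± 0.12 and was not called (limma adjusted p = 0.22).

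By the brightest probe set, no gene was called by limma in 12 of the 36 lists, the adipocyte list among them. They held 273 gene entries, 24 of them at an unadjusted p under 0.05 in limma, against 1046 of all 13469 genes. The medians of these lists ran from -0.07 to 0.14. Cell cycle genes were among them: 0 of 41 called, 2 at an unadjusted p under 0.05, with a median of -0.07 in AS. Interferon response, immediate early and heat shock, ribosomal protein and basement membrane genes were others.

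**Figure D4:**
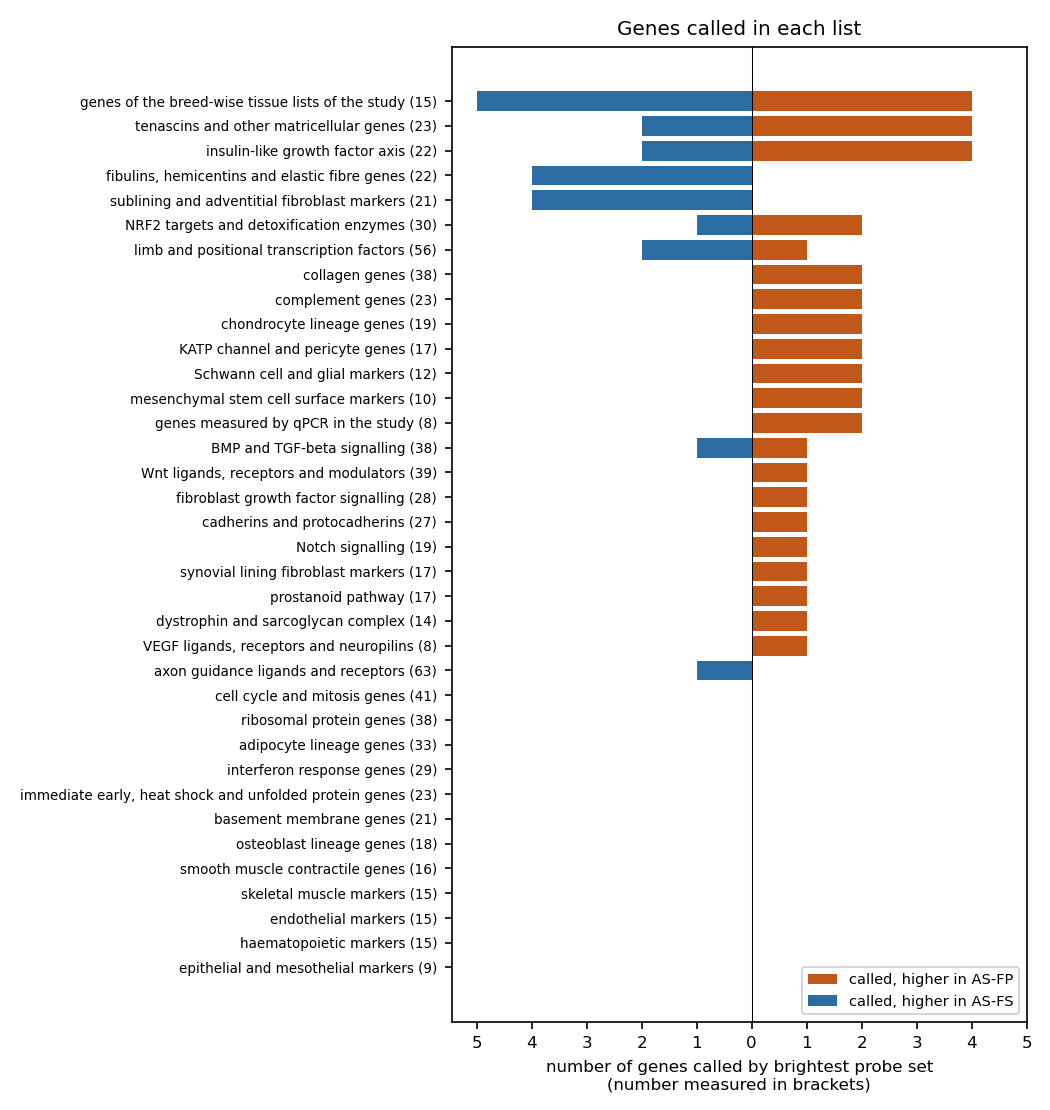
Number of genes called in each of the 36 gene lists, by the brightest probe set of each gene, with the number measured in brackets. Orange bars count genes higher in AS-FP and blue bars genes higher in AS-FS; over all 13469 genes 66 and 44 were called. Lists share genes, and the top list was chosen by the study on these samples.

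Of the 15 genes that the study listed for its tissue comparison within breeds, 9 were called here, 4 higher in AS-FP and 5 higher in AS-FS. The study chose them on these samples, so the count is not independent evidence. Besides genes already named they include PRDM8, a histone methyltransferase-like factor, at 7.95 and 7.77 in AS-FP against 8.85 and 8.74 in AS-FS (-0.93 ± 0.08, limma adjusted p = 0.0085). Of the 8 genes that the study took to qPCR, PIK3R1 and SFRP1 were called. The pluripotency factor NANOG and the Wnt antagonist DKK2 differed by -0.13 and 0.02.

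The tissue difference in German Landrace served to ask whether that in Angeln Saddleback differs from it. In German Landrace 207 probe sets (0.434%) were called. Of the 236 called in Angeln Saddleback 64 were among them, 27.1% of the one list and 30.9% of the other, for 44 named genes, and none had the opposite sign. The comparisons share no array but share the estimate of the spread. Among the 236, 208 had the same sign in German Landrace and 28 the opposite sign. The share with the same sign over all probe sets was not counted, so 208 is not read as agreement between breeds. The median difference of the 152 higher in AS-FP was 1.03 in Angeln Saddleback, the breed that chose them, and 0.43 in German Landrace, and that of the 84 higher in AS-FS was -0.93 and -0.54.

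No probe set passed the test of the difference between breeds: 0 were called (0%), the lowest limma adjusted p was 0.190, and 2938 of 47722 had an unadjusted p under 0.05. So nothing above is shown to be particular to Angeln Saddleback. PTGFR, at that lowest adjusted p, differed by 1.50 in Angeln Saddleback and by 0.56 in German Landrace, where it read 9.60 and 9.62 in FP and 9.02 and 9.09 in FS. COL11A1 differed by 1.71 and 0.28 (limma adjusted p for the difference = 0.201).

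Some genes had like values in both breeds. EFEMP1 differed by -1.29 and -1.15, ADGRD1 by -1.67 and -1.81, and FBLN1 by -1.16 and -1.23. NOV had -1.75 in Angeln Saddleback and 0.17 in German Landrace, where both FP arrays lay between the FS arrays at 6.63 and 5.65 (limma adjusted p for the difference = 0.351). PLCXD3 had 2.01 and -0.19, and its German Landrace levels lay near background at 2.90 to 3.65 (limma adjusted p for the difference = 0.34).

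**Figure D5:**
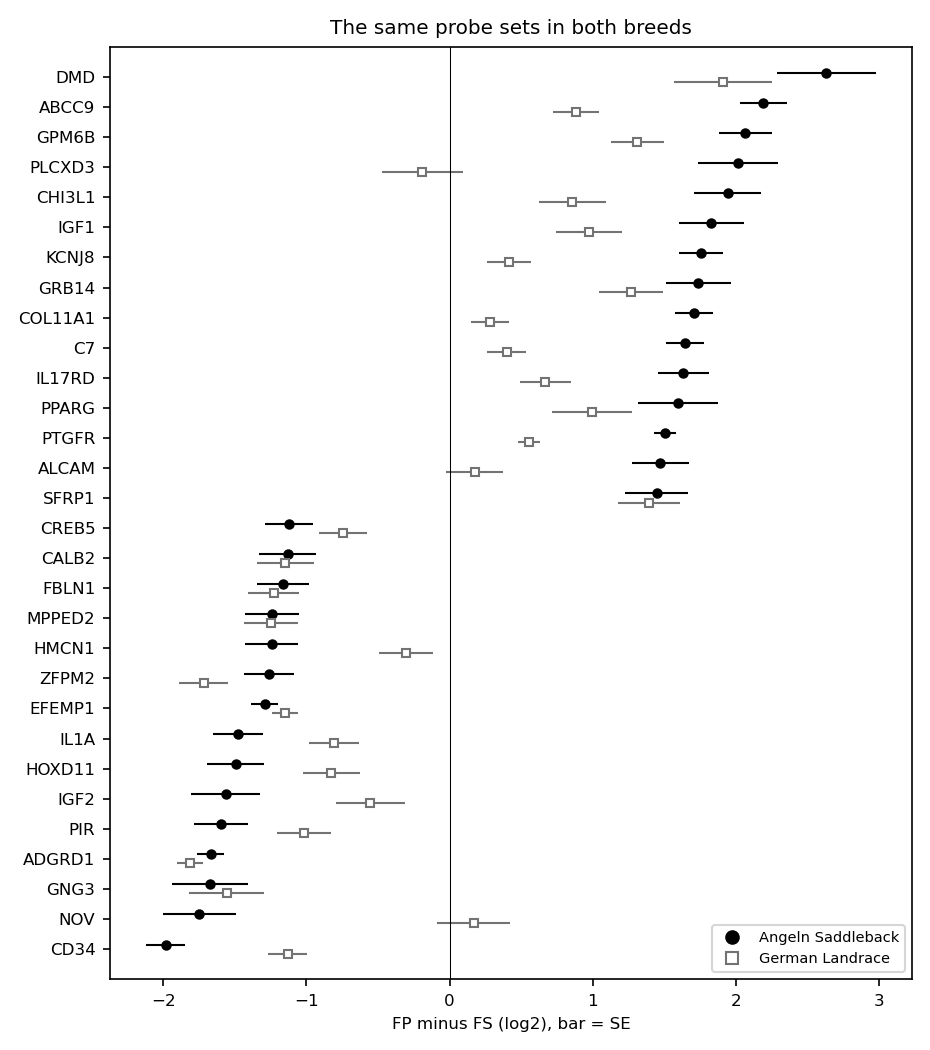
FP minus FS on the log2 scale with its standard error for the 30 genes of the array plot, in Angeln Saddleback (filled circles) and German Landrace (open squares), by the same probe sets. The genes were chosen for their Angeln Saddleback values, and no difference between breeds was called. Of the 30, 28 have the same sign in both, the exceptions being PLCXD3 and NOV. The like share over all probe sets was not counted.

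The number of calls depended on single arrays and on the block. Without the replicate block 26 probe sets were called, all of them among the 236, and 9 of the 30 genes kept their call: DMD, GPM6B, IGF1, KCNJ8, GRB14, PTGFR, CD34, PIR and EFEMP1. Among the genes that lost their call were ABCC9, COL11A1, C7 and ADGRD1 (limma adjusted p without the block = 0.30, 0.24, 0.19 and 0.33). Without AS-FP array 1 or 2 the count was 28 or 40, without AS-FS array 1 or 2 it was 40 or 35, and without DL-FP array 1 or 2, which enter the spread, 127 or 126. The 13 probe sets called without each of the 8 arrays in turn stand for CD34, GPM6B, EFEMP1, COL11A1, ABCC9, IGF1, PTGFR, C7, ADGRD1 and IGF2, and for 2 probe sets with no name.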

How the data were processed

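Gene expression was measured on the porcine Snowball array in 8 samples, and the 4 AS arrays carry the comparison. The values are log2 RMA levels, which the authors computed in Expression Console; the submitters' processing notes also name GCOS 1.1.1. The deposited log2 values were used as they stand, without the 123 control probe sets. Symbols came from the platform annotation, 406 of them updated through RefSeq, and 72 from the study's probe set table; 25967 probe sets had 1 symbol and 21755 none here. The genome position and the sequence of probes were not used, so signal shared with near-identical genes cannot be told apart.

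A mean for each of the 4 groups and the replicate number as a block were fitted with limma 3.58.1 (R 4.3.3; lmFit, then eBayes with a trend), two-sided, with Benjamini-Hochberg adjustment over 47722 probe sets and a threshold of 0.1, the false discovery rate of the methods. Same-numbered arrays of different groups deviated together in all 6 pairs of groups (r from 0.143 to 0.219), the ground for the block; what the number stands for is not given in the sources used here. Residual degrees of freedom were 3. The fit was also run on simulated data with independent noise for each array and a built-in effect of the replicate number. Such data cannot show whether the block or the pooled spread suits these arrays. A group was at background where its mean did not exceed the highest median of 69 background probe sets on its arrays, and a bound was then taken against each array's background median.

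Named were the 15 genes with the largest called difference in each direction that have a full symbol and no overlap of the tissues' arrays. The 4 called genes known only by a locus number were left out. Also named were called members of 36 gene lists, with other members as values, and genes the study listed or took to qPCR. In lists a gene stands for its brightest probe set over the 8 arrays. The members, lists and genes followed over all probe sets were chosen with earlier results of these data known. Alternatives are given in the closing section.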

Additional observations from a re-analysis of the deposited data

How the results depend on the processing

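The count of 236 probe sets between AS-FP and AS-FS stayed within 1.5 times under an SD filter, a background filter, median-centred arrays and a fit of the 4 AS arrays alone (239, 299, 234 and 304). It was 26 without the replicate block, 23 with no trend in the moderated variances, 1 (PTGFR) with the plain linear model of the methods, and 4 with that model after the SD filter, a combination chosen after seeing the data; leaving out 1 array gave 28 to 238. The lone array of a group is then assumed to vary like the other groups. The German Landrace count of 207 was 21, 3, 0 (2110 at an unadjusted p under 0.05) and 3 under the same 4 settings, and 1 to 132 when 1 array was left out. The difference between breeds gave 0 calls under each setting in which it was fitted except the combined one, with 1; the 4 AS arrays alone hold no such comparison. The cause of these changes was not tested. None of the 30 genes changed sign under any setting; 29 kept their call under the SD filter, 8 with no trend and 7 without AS-FP array 1. CALB2, at a limma adjusted p of 0.0999, was called in none of the fits that left out 1 array (0.16 to 0.47). Of 37 median differences, those of the 36 lists and of all genes, 14 moved by more than the spread between array pairs when all probe sets of a gene were averaged. With 2 arrays a group, their number limits the precision.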

Other observations

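Outside the lists, further genes were called, and those given here were chosen after their values were seen. Higher in AS-FP were MYO1D, a myosin motor (1.15, limma adjusted p = 0.0085), the adrenergic receptor ADRA2A (4.83 and 4.95 against 3.57 and 3.49; 1.36, limma adjusted p = 0.031), the chemokine CCL19 (1.02, limma adjusted p = 0.018), the vitamin D receptor VDR (0.76, limma adjusted p = 0.076) and the imprinted noncoding RNA MEG3 (0.89, limma adjusted p = 0.037, in 1 of 6 probe sets). Higher in AS-FS were the retinoic acid receptor RARB (-0.71, limma adjusted p = 0.043), the calcium-binding S100A4 (-0.87, limma adjusted p = 0.018), the metalloprotease inhibitor TIMP3 (-0.48, limma adjusted p = 0.057, with its other probe set at 0.29), and CSF1, the growth factor of macrophages (-0.53, limma adjusted p = 0.035). CD86, known from antigen-presenting cells, read 7.33 and 7.19 in AS-FP against 8.08 and 8.09 in AS-FS, although none of the 15 blood cell markers was called (0 of them at an unadjusted p under 0.05 in limma); its 5 probe sets ran from -1.13 to 0.81, with 2 called.

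The largest difference of all probe sets, 3.08 in one with no name here, was not called (limma adjusted p = 0.737): it read 9.71 and 9.39 in AS-FP against 4.75 and 8.18 in AS-FS, so that the AS-FS arrays differed by more than the tissues. PGK1, a glycolytic enzyme, was called in 1 of 9 probe sets, at 1.15, with the other 8 from -0.12 to 0.43.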
